A study of Mus musculus with 48 samples.

Results

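The comparison set the livers of 4 female mice fed a high fat (HF) diet for 34 weeks against those of 4 female mice fed a low fat (LF) diet for the same 34 weeks, 8 of the 48 livers in the series. Members were chosen by sample title alone, F-HF-C for the first group and F-LF-C for the second, and every gene with counts was examined. All 8 mice carried a floxed Pparg gene and received, after 16 weeks of diet, AAV8-TBG-null, an adeno-associated virus with the hepatocyte promoter TBG and no Cre. Other mice of the series received AAV8-TBG-Cre; the null virus and the floxed alleles were common to both groups compared here. The HF diet was D12492 and the LF diet D12450J. The labels call the LF mice healthy and the HF mice steatotic; they call all of them adult and give no exact age, strain or hour of collection. RNA came from whole liver, so a difference between groups can reflect fewer cells of a type or less RNA per cell, which cannot be told apart.

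As background, a high fat diet makes the mouse store triglyceride in hepatocyte lipid droplets and raises circulating insulin and leptin. The liver clock is a feedback loop in which the activators BMAL1 (Arntl), CLOCK and NPAS2 drive the Per and Cry repressors and the nuclear receptors Nr1d1 and Nr1d2, which in turn act on Arntl. Bone morphogenetic proteins (BMPs), chiefly from liver endothelium, signal in hepatocytes through SMAD1, SMAD5 and SMAD9 to the ID genes and to Hamp, which encodes the iron hormone hepcidin. Growth hormone, acting through STAT5B, sets which P450s and other genes are higher in the liver of one sex.

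Of 14216 genes tested with edgeR's quasi-likelihood test, 63 were called higher on HF (0.443%) and 36 lower (0.253%), 99 in all (0.696%). A gene is called where its Benjamini-Hochberg adjusted p is under 0.05. A further share of the genes differed more loosely: 2314 (16.3%) had an unadjusted p under 0.05, and for 1445 (10.2%) the 4 HF values and the 4 LF values did not overlap, 835 with HF above LF (5.87%) and 610 with HF below (4.29%). Called members were found in 7 of the 29 gene lists of pathways and cell types: the clock (4), BMP and TGF-beta signalling (3), lipid droplet genes (2) and 1 each in the leptin, female-biased, acute phase and hepatokine lists. The count depended on the method and on single libraries. DESeq2's Wald test called 633 genes (4.36% of 14503). The authors' deposited table lists 622 of 24088 at an adjusted p under 0.05 (2.58%), among them all 99. Leaving out 1 library gave between 10 (without HF replicate 3, or without LF replicate 4) and 112 (without HF replicate 1).

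The 8 libraries held 16680210 to 20018621 reads on genes. In a principal component analysis of log2 CPM (read counts scaled to a common library size), the first component carried 33.1% of the variance and the second 26.9%, and replicate 1 of each diet lay apart from the other 3 livers of its group. Without both of those libraries 238 genes were called, among them 86 of the 99, and the counts for the clock, BMP and lipid droplet lists are given with and without them. Hepatocyte markers summed to between 74517 and 99434 CPM and overlapped between diets, and pancreas and adipose markers were at or near 0 (at most 0.406 and 0.328 CPM summed). The 5 blood genes, haemoglobins and Alas2, summed to 109 to 227 CPM on HF and 77.9 to 104 on LF. All 5 had an unadjusted p under 0.05 (16.3% of all genes in either direction). By edgeR 0 were called, and by the Wald test 3 (4.36% of all genes). Their part in the results below was not tested.

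**Figure D1:**
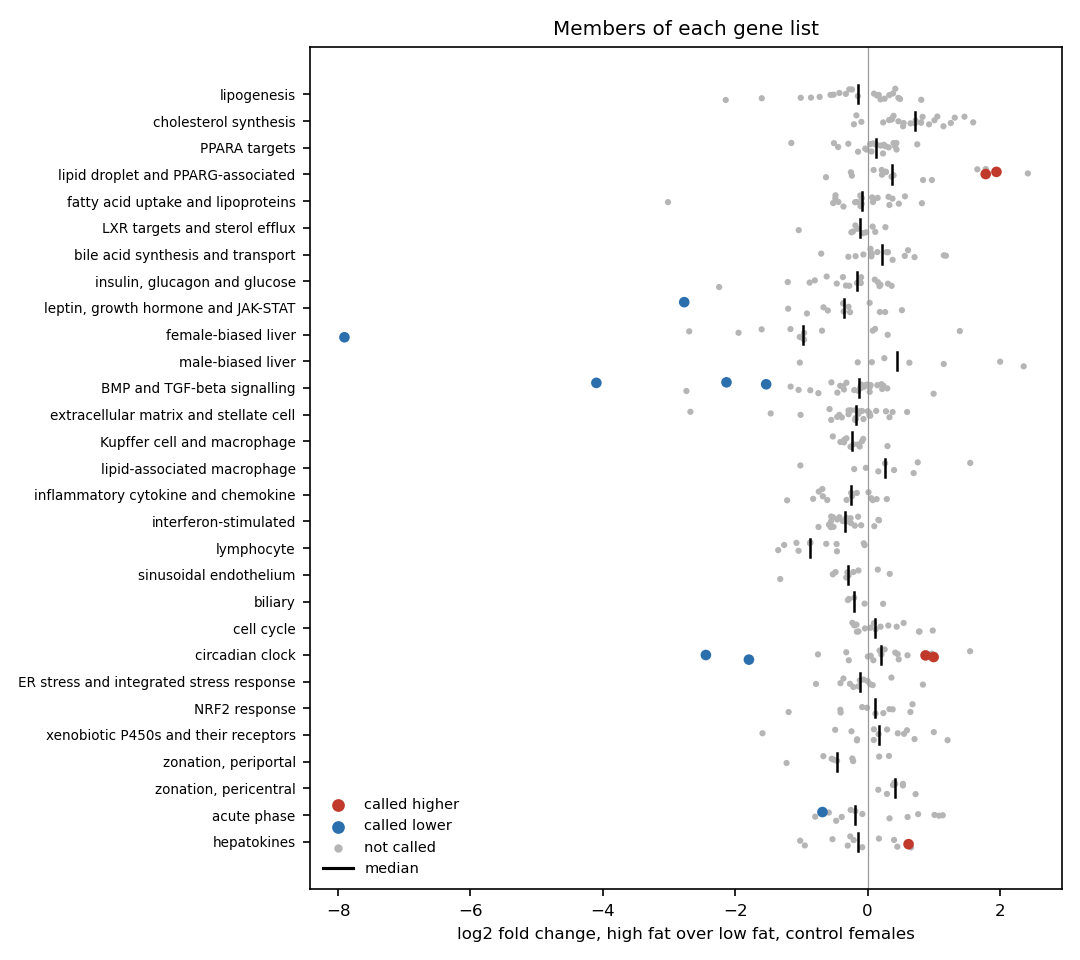
Each point is 1 gene of a list (rows), placed by its log2 fold change, HF over LF, in control females (horizontal axis); red and blue points are genes called higher and lower at an adjusted p under 0.05, grey points are not called, and the black bar is the list's median. Called genes are found in 7 of the 29 lists, on both sides of 0 in the clock list and below 0 in the BMP list, and the cholesterol synthesis list lies mostly to the right of 0 with a median of 0.72 and 0 called.

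The circadian clock list held 19 genes, all tested: 2 were called higher and 2 lower (background 0.443% and 0.253%). In 8 of the 19 all HF values lay above all LF values (5.87% of all genes) and in 3 all lay below (4.29%). The list's median log2 fold change was 0.21, against -0.002 over all genes tested. The 2 called higher were period genes, and the 2 called lower were activators of the loop. The labels give no hour of collection. For these genes and the clock outputs below, diet and a difference in that hour between groups cannot be told apart. The same holds for every other gene compared between the diets.

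Per3 (ENSMUSG00000028957, GRCm38 chromosome 4, 151003652 to 151044665, minus strand), a repressor of the loop, had 124, 128, 149.9 and 141 CPM on HF and 69.1, 67.5, 72.3 and 63.2 on LF. The groups were separated by a wide gap, and within each diet the livers differed little. Per3 rose 1.997-fold (log2 fold change 0.998, SE 0.089, adjusted p 0.00329), and the call was kept in all 8 fits that left out 1 library. Per2 (ENSMUSG00000055866, GRCm38 chromosome 1, 91415982 to 91459324, minus strand), the partner repressor, measured 68.7, 71.9, 82.6 and 66.4 CPM on HF and 43.2, 41.9, 35.6 and 37.2 on LF. The gap between the diets again exceeded the spread within either (log2 fold change 0.88, SE 0.10, adjusted p 0.00879), and the call was lost only without LF replicate 4.

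Both called activators were lower on HF. Arntl (ENSMUSG00000055116, GRCm38 chromosome 7, 113207465 to 113314126, plus strand), which encodes BMAL1, stood at 5.92, 4.55, 3.75 and 3.50 CPM on LF and 1.15, 1.68, 0.642 and 1.62 on HF. The highest HF liver was below the lowest LF liver, and Arntl fell by 1.79 on the log2 scale (SE 0.32, edgeR adjusted p 0.0423). Npas2 (ENSMUSG00000026077, GRCm38 chromosome 1, 39193731 to 39363236, plus strand), a paralog of Clock that also pairs with BMAL1, had 32, 13, 30 and 23 reads in the LF libraries and 4, 4, 2 and 7 in the HF libraries. This is 0.243 ± 0.120 CPM (SD, n = 4) on HF and 1.35 ± 0.459 on LF (log2 fold change -2.44, SE 0.44, adjusted p 0.0423), at a depth of few reads per liver. Both calls sat just under the threshold and each was lost in all 8 fits without 1 library. Clock itself measured 27.9 ± 3.86 CPM (SD, n = 4) on HF and 34.9 ± 3.61 on LF, with a log2 fold change of -0.32 (adjusted p 0.222).

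Further clock members were not called; their values follow. Dbp, a clock output transcription factor, had 168, 168, 188 and 202 CPM on HF and 118, 122, 136 and 148 on LF, a log2 fold change of 0.47 (adjusted p 0.0801). Nfil3, which opposes DBP at the same DNA sites, had 11.8, 20.1, 13.3 and 14.6 CPM on HF and 30.6, 22.4, 24.004 and 23.5 on LF, or -0.75 (adjusted p 0.0801) on the log2 scale. In both of these genes the diets did not overlap. Ciart, a repressor of the activator complex, stood at 11.98, 19.4, 19.6 and 18.4 CPM on HF and 11.6, 3.04, 5.26 and 3.81 on LF. Its diets did not overlap either, but replicate 1 of both diets had nearly the same value. The log2 fold change of 1.55 had an adjusted p of 0.0928. Per1 and Nr1d1 overlapped between diets, with means of 54.8 (HF) and 54.7 CPM (LF) for Per1 and 114 and 139 CPM for Nr1d1.

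Wee1 (ENSMUSG00000031016, GRCm38 chromosome 7, 110122046 to 110143286, plus strand), a kinase that delays mitotic entry and is a known clock output in liver, was outside the list and entered by its size and stability. It had 33.9, 27.003, 34.1 and 28.01 CPM on HF and 10.01, 9.78, 13.3 and 9.13 on LF, so the lowest HF liver lay far above the highest LF liver. Wee1 rose 2.91-fold (log2 fold change 1.54, SE 0.14, adjusted p 0.00329) and was called in all 8 fits. Usp2, a deubiquitinase with rhythmic liver expression that was chosen after its values were seen, had 48.3, 60.6, 66.04 and 61.4 CPM on HF and 30.5, 17.6, 24.2 and 22.3 on LF (log2 fold change 1.32, SE 0.16, adjusted p 0.0114).

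The number of called clock genes was 4 in the full fit, 5 without replicate 1 of both diets, and 1 (without LF replicate 4) to 3 (without HF replicate 2, or without LF replicate 1) when 1 library was left out; it was 2 without each of the other 5 libraries. DESeq2's Wald test called 9, 6 higher and 3 lower, where it called 4.36% of all genes.

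**Figure D2:**
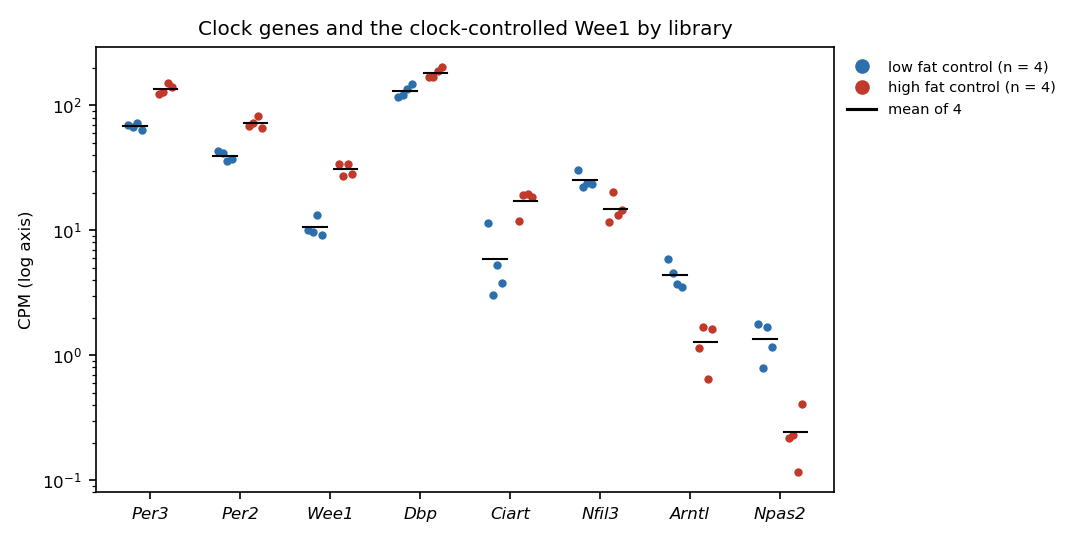
CPM on a log axis for 7 clock genes and Wee1 (horizontal axis), 1 point per liver, blue for the 4 LF controls and red for the 4 HF controls, with a black bar at each mean. Per3, Per2 and Wee1 are higher and Arntl and Npas2 lower in every HF liver. Ciart is nearly equal in replicate 1 of both diets (the left point of each group). The hour of collection is not given in the labels.

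Of the 32 genes of the BMP and TGF-beta list, all tested, 0 were called higher and 3 lower, Smad9, Id1 and Id3 (background 0.253% lower). In 8 of the 32 every HF liver was below every LF liver (4.29% of all genes), and in 0 was it above. The median log2 fold change was -0.13 (all genes -0.002), and 22 of the 32 were below 0.

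Smad9 (ENSMUSG00000027796, GRCm38 chromosome 3, 54755582 to 54801257, plus strand) encodes 1 of the receptor-activated SMADs of the BMP branch and is itself a known BMP target. It had 16.3, 12.6, 7.50 and 11.6 CPM on LF and 1.48, 0.348, 0.408 and 0.521 on HF. All HF livers were far below all LF livers, with HF replicate 1 the highest of its group. Smad9 was 17.1-fold lower on HF (log2 fold change -4.10, SE 0.43, adjusted p 0.00829), from 866 reads over the LF libraries to 49 over the HF libraries, and the call held in all 8 fits. On the deposited FPKM scale, which allows comparison between genes, Smad9 went from 2.37 ± 0.709 on LF (SD, n = 4) to 0.134 ± 0.103 on HF. Smad1 stood at 3.14 ± 0.251 FPKM on LF and 2.70 ± 0.341 on HF, and Smad5 at 6.44 ± 0.760 on LF and 5.97 ± 0.471 on HF. Neither was called (log2 fold changes -0.20 and -0.10, adjusted p 0.432 and 0.675).

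The ID genes encode helix-loop-helix inhibitors that BMPs induce. Id1 (ENSMUSG00000042745, GRCm38 chromosome 2, 152736251 to 152737410, plus strand) had 27.4, 28.8, 12.5 and 12.7 CPM on LF and 5.96, 5.22, 4.67 and 2.66 on HF. All HF livers were below the LF livers, which fell into a higher pair (replicates 1 and 2) and a lower pair (replicates 3 and 4). The first pair was also above the second for Smad9 and Id3 and, among genes given below, Hamp, Smad7 and Atoh8. For Id2, Bmp6 and Smad6 it was not. Id1 fell by 2.13 on the log2 scale (SE 0.34, edgeR adjusted p 0.0322), a call kept in 3 of the 8 fits and lost without HF replicates 2, 3 or 4 or LF replicates 2 or 4. Id3 (ENSMUSG00000007872, GRCm38 chromosome 4, 136143497 to 136145755, plus strand) had 97.7, 90.3, 69.4 and 69.9 CPM on LF and 33.7, 23.6, 35.5 and 20.3 on HF. Its groups did not overlap (log2 fold change -1.53, SE 0.19, adjusted p 0.0114), and it was called in all 8 fits. Id2 was at 123, 138, 121 and 141 CPM on LF and 76.6, 99.2, 86.9 and 50.005 on HF, also without overlap, and its log2 fold change of -0.74 was not called (adjusted p 0.0928).

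Hamp (ENSMUSG00000050440, GRCm38 chromosome 7, 30942368 to 30944032, minus strand), the hepcidin gene, had 1585, 1129.8, 674 and 696 CPM on LF and 34.9, 257, 146 and 174 on HF. Every HF liver was below every LF liver, the lowest being HF replicate 1. The log2 fold change of -2.74 (SE 0.52) just missed the threshold at an adjusted p of 0.0529. Hamp has a close paralog, Hamp2, so reads may be split between the genes. Bmp6, the ligand that governs hepcidin, measured 8.96, 7.90, 8.001 and 8.93 CPM on LF and 5.74, 3.01, 4.20 and 3.41 on HF, a log2 fold change of -1.04 (adjusted p 0.0529). Its exons overlap those of Txndc5 on the other strand, at a mean of 167 CPM, and the libraries do not tell strands apart. This ligand comes chiefly from sinusoidal endothelium. Of 10 markers of those cells, 0 were called by edgeR or by the Wald test, 8 were negative in sign and 3 had an unadjusted p under 0.05 (16.3% of all genes), all lower. Their median log2 fold change was -0.30, their summed CPM was 268 to 375 on HF and 314 to 467 on LF, and none was at 0. The part of these markers in the Bmp6 value was not tested. The levels of Smad6, an inhibitory SMAD, were 14.01 ± 0.985 CPM (SD, n = 4) on HF and 19.2 ± 1.32 on LF (log2 fold change -0.46, adjusted p 0.0673). For Smad7, the other inhibitory SMAD, they were 15.8 ± 5.40 CPM (SD, n = 4) on HF and 28.8 ± 7.56 on LF (log2 fold change -0.87, adjusted p 0.15). The receptors Bmpr1a, Bmpr2 and Acvr1 and the co-receptor hemojuvelin (Hfe2) had log2 fold changes of -0.02, 0.03, 0.21 and 0.01, with adjusted p of 0.954, 0.918, 0.432 and 0.993.

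Atoh8 (ENSMUSG00000037621, GRCm38 chromosome 6, 72206177 to 72235577, minus strand), a transcription factor known to respond to BMP and to act on Hamp, was named for its size and is not in the list. It had 51.4, 40.3, 24.3 and 28.5 CPM on LF and 11.5, 15.5, 9.98 and 11.3 on HF, with no overlap (log2 fold change -1.58, SE 0.24, adjusted p 0.0235). That call was kept in 4 of the 8 fits and lost without HF replicates 3 or 4 or LF replicates 2 or 4. Of the BMP list, 2 to 5 genes were called when 1 library was left out, 5 of them without HF replicate 1, and 5 without replicate 1 of both diets. The Wald test called 8, all lower (4.36% of all genes in either direction).

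**Figure D3:**
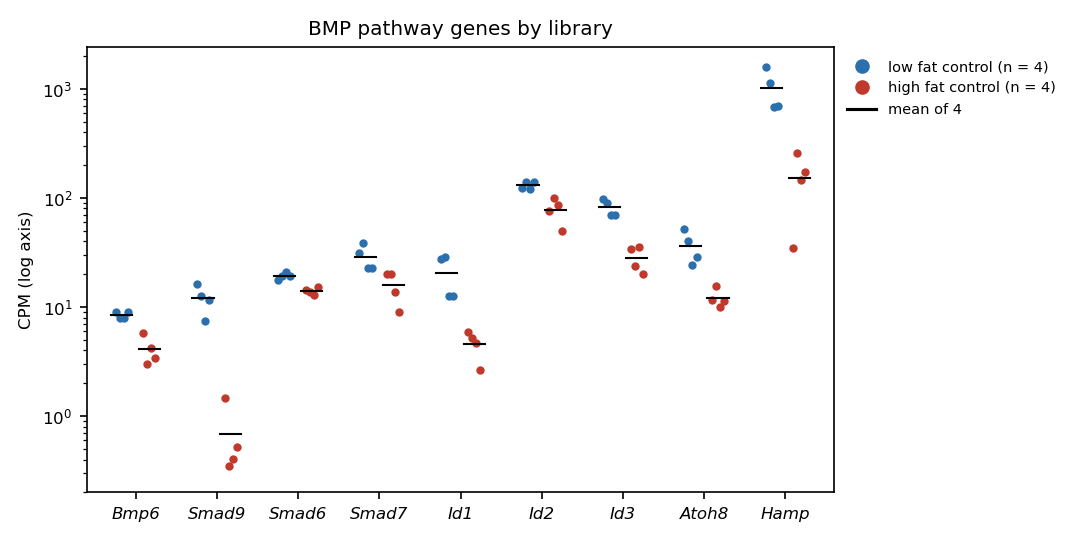
CPM on a log axis for the ligand Bmp6, the transducer Smad9, the inhibitors Smad6 and Smad7, and the targets Id1, Id2, Id3, Atoh8 and Hamp, 1 point per liver (blue LF, red HF, 4 each) with a black bar at each mean. In all 9 genes each HF liver lies below each LF liver, and Smad9, Id1, Id3 and Atoh8 were called. Of the 32 list genes, the 8 drawn are all those without overlap between diets. The other list genes are not shown, and 10 of the 32 were positive in sign. Atoh8 was named for its size.

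The promoters of Smad9 and Hamp are shown as examples of BMP targets whose HF and LF values did not overlap, chosen after the motif search. RefSeq's windows (GRCm38.p6; Smad9, chr3:54755332-54755631, plus strand; Hamp, chr7:30943980-30944279, minus strand; each printed 5′ to 3′ on the gene's strand) each hold 1 copy of the BMP SMAD motif GGCGCC, in capitals, at positions -51 and -109 from the start. That motif is its own reverse complement and is found in 11.9% of all 32851 windows. Of the 75 windows of the genes described here 16 hold it, among them those of Id2 and of genes outside the BMP list such as Adcy1, Plin4, Ces1g, Pmm1 and Ppara. The windows given for Id3, Smad6, Bmp6 and Atoh8 hold none.
Smad9: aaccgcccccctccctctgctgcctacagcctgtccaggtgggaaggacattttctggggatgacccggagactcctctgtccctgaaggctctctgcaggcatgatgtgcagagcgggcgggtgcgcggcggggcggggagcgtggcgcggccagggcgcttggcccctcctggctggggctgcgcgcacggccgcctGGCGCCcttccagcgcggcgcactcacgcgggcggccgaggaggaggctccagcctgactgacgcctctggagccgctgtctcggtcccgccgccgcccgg
Hamp: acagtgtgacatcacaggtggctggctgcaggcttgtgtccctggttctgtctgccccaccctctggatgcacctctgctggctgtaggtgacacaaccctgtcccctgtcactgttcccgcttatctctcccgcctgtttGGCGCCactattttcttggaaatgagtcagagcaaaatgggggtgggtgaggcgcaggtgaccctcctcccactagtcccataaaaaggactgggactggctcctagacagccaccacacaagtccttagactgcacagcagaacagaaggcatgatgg

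Among receptor and hormone genes, Lepr and Egfr were lower on HF. Lepr (ENSMUSG00000057722, GRCm38 chromosome 4, 101717404 to 101815352, plus strand), the leptin receptor, was the 1 gene called among 13 of the leptin, growth hormone and JAK-STAT list (0.253% of all genes were called lower). It had 55.5, 99.8, 78.4 and 83.8 CPM on LF and 10.4, 20.98, 5.43 and 9.67 on HF. The lowest LF liver had more than any HF liver, and Lepr was 6.82-fold lower on HF (log2 fold change -2.77, SE 0.35, adjusted p 0.0114), a call lost only without LF replicate 4. Downstream feedback inhibitors were not called: Socs3 had 16.2, 13.5, 14.7 and 23.7 CPM on LF and 5.80, 12.4, 8.17 and 9.72 on HF (log2 fold change -0.92, adjusted p 0.115), without overlap. Socs2 had 47.02, 48.3, 43.1 and 115 CPM on LF and 22.2, 43.2, 20.01 and 25.2 on HF (log2 fold change -1.20, adjusted p 0.143), with LF replicate 4 far above the rest. Egfr (ENSMUSG00000020122, GRCm38 chromosome 11, 16752203 to 16918158, plus strand), the epidermal growth factor receptor, had 236, 145, 150.4 and 192 CPM on LF and 56.98, 62.1, 54.4 and 82.3 on HF, with no overlap (log2 fold change -1.5, SE 0.18, adjusted p 0.0114); the call was lost without HF replicate 3 or LF replicate 4.

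A1bg (ENSMUSG00000022347, GRCm38 chromosome 15, 60896859 to 60923012, minus strand), a secreted immunoglobulin-domain protein that is higher in female mouse liver, had the largest log2 fold change of the 99 called genes. Its values were 1489, 118, 666 and 254 CPM on LF and 0.930, 3.30, 1.58 and 4.75 on HF. The LF livers ranged over more than an order of magnitude among themselves, yet the lowest of them lay far above the highest HF liver (log2 fold change -7.90, SE 0.93, adjusted p 0.0113). The call was lost only without HF replicate 3. Its exons overlap 4930402D18Rik on the other strand, which had a mean of 0.175 CPM.

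A1bg was the 1 gene called among 14 female-biased genes (0.253% of all genes were called lower), whose median log2 fold change was -0.97. Of 8 tested male-biased genes 0 were called by edgeR, and their median was 0.44. By sign, 6 of these 8 were higher and 2 lower. At an unadjusted p under 0.05 there were 3 higher and 1 lower (16.3% of all genes in either direction). By DESeq2, 3 female-biased genes were called, all lower, and 2 male-biased genes, both higher (4.36% of all genes in either direction). The other members are given as values. Among female-biased P450s, Cyp2a4 had 1449.5, 1637, 1036 and 816 CPM on LF and 709, 735, 488 and 608 on HF (log2 fold change -0.96, adjusted p 0.0847). Cyp3a44 stood at 47.2, 152, 217 and 124 CPM on LF and 0.766, 44.2, 1.93 and 36.6 on HF, with HF replicates 1 and 3 far below the other pair (log2 fold change -2.69, adjusted p 0.216). Cyp2b13 lay the other way, at 416, 655, 663 and 569.9 CPM on HF and 34.4, 231, 259.6 and 352 on LF (log2 fold change 1.39, adjusted p 0.231). These P450s have close paralogs, and reads can be split among them. Of the male-biased genes, Elovl3, a fatty acid elongase, had 3.23, 2.32, 2.80 and 1.91 CPM on HF and 0.111, 0.304, 0.839 and 0.710 on LF (log2 fold change 2.36, adjusted p 0.0553). Cyp2d9, a P450, had 70.5, 29.4, 46.4 and 39.6 CPM on HF and 2.6, 10.2, 12.2 and 21.3 on LF (log2 fold change 2.002, adjusted p 0.0928). Neither overlapped between diets.

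Adcy1 (ENSMUSG00000020431, GRCm38 chromosome 11, 7063489 to 7178506, plus strand), an adenylyl cyclase, had 8.68, 8.08, 3.25 and 7.36 CPM on LF and 1.70, 0.174, 0.117 and 0.463 on HF (log2 fold change -3.45, SE 0.65, adjusted p 0.0479), a call kept only without HF replicate 1. Srgap3 (ENSMUSG00000030257, GRCm38 chromosome 6, 112717971 to 112947266, minus strand), a GTPase-activating protein, had 5.70, 8.32, 8.90 and 5.53 CPM on LF and 1.80, 1.74, 1.17 and 1.45 on HF. The diets were well apart (log2 fold change -2.20, SE 0.24, adjusted p 0.00864), and the call held in all 8 fits.

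Of 20 lipid droplet and PPARG-associated genes, 17 passed the filter on low counts, and of these 2 were called higher, Fitm1 and Plin4, and 0 lower (0.443% and 0.253% of all genes). The median log2 fold change was 0.36 (all genes -0.002). Fitm1 (ENSMUSG00000022215, GRCm38 chromosome 14, 55575617 to 55576954, plus strand), an endoplasmic reticulum protein that helps package triglyceride into droplets, had 35.1, 19.1, 18.03 and 16.7 CPM on HF and 4.87, 3.16, 7.55 and 7.41 on LF. HF replicate 1 was the highest and the other 3 HF livers were alike, all above the LF livers (log2 fold change 1.95, SE 0.32, adjusted p 0.0322). Plin4 (ENSMUSG00000002831, GRCm38 chromosome 17, 56100591 to 56109803, minus strand), a droplet coat protein, had 108, 68.3, 73.1 and 31.1 CPM on HF and 18.5, 17.4, 26.2 and 19.2 on LF. HF replicate 4 was close to the highest LF liver (log2 fold change 1.78, SE 0.31, adjusted p 0.0417). Plin4 exons overlap those of Hdgfl2 on the other strand, at a mean of 35.3 CPM. Each of the 2 calls was kept in 2 of the 8 fits. DESeq2's Wald test called 5, 4 higher and 1 lower (4.36% of all genes). By edgeR the list had 2 called genes without HF replicate 1 and without replicate 1 of both diets, 1 without HF replicate 2 or HF replicate 4, and 0 without each of the other 5 libraries.

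Pparg, the receptor floxed in these mice, was at 21.98, 18.5, 17.2 and 12.4 CPM on HF and 7.52, 7.29, 10.6 and 13.7 on LF, with 1 HF liver inside the LF range. Its log2 fold change of 0.84 was not called by edgeR (adjusted p 0.127). An exact 2-sided permutation test of its log2 CPM gave p = 0.0571, where 4 against 4 livers allow no less than 0.0286. Plin5, the droplet coat protein of oxidative tissues, lay in the other direction at 61.4, 63.9, 83.1 and 83.7 CPM on LF and 40.03, 58.6, 41.2 and 49.1 on HF, -0.63 (adjusted p 0.0928) on the log2 scale. Cidec, which fuses droplets, had 53.5, 9.33, 13.2 and 5.90 CPM on HF and 6.97, 5.22, 4.59 and 9.13 on LF. Osbpl3, an oxysterol-binding protein, had 93.5, 7.19, 14.002 and 3.76 CPM on HF and 13.1, 2.61, 3.36 and 3.09 on LF. In both genes HF replicate 1 was far above every other liver, and neither was called (log2 fold changes 1.66 and 2.42, adjusted p 0.231 and 0.258). Plin2, the general droplet coat protein, had a log2 fold change of -0.25 (adjusted p 0.67).

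**Figure D4:**
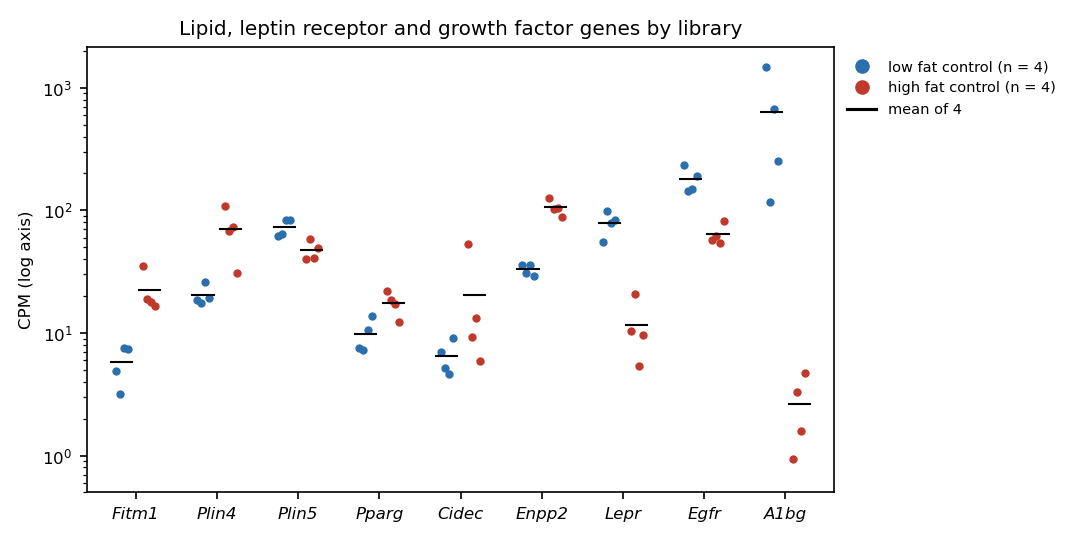
CPM on a log axis for 5 lipid droplet genes including Pparg, the autotaxin gene Enpp2, the receptors Lepr and Egfr, and A1bg. Each point is 1 liver (blue LF, red HF, 4 each), and a black bar marks each mean. Enpp2, Fitm1 and Plin4 are higher and Lepr, Egfr and A1bg lower in every HF liver, Pparg overlaps, and Cidec reaches 53.5 CPM in HF replicate 1 and at most 13.2 in the other 3 HF livers.

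Enpp2 (ENSMUSG00000022425, GRCm38 chromosome 15, 54838901 to 54952892, minus strand) had the smallest adjusted p of the comparison. It encodes autotaxin, the secreted enzyme that makes lysophosphatidic acid. Its values were 126, 104, 104 and 88.6 CPM on HF and 35.7, 30.7, 36.1 and 29.3 on LF. The groups were tight and far apart. Enpp2 rose 3.21-fold (log2 fold change 1.68, SE 0.12, adjusted p 0.00117), and the call held in all 8 fits. Gm26684, which overlaps it on the other strand, had a mean of 8.86 CPM. Slc46a3 (ENSMUSG00000029650, GRCm38 chromosome 5, 147878437 to 147894815, minus strand), a lysosomal transporter, had 49.2, 42.3, 54.1 and 42.5 CPM on HF and 23.3, 23.8, 18.6 and 17.96 on LF (log2 fold change 1.17, SE 0.13, adjusted p 0.00864), also called in all 8 fits. Aldh1a1 (ENSMUSG00000053279, GRCm38 chromosome 19, 20492715 to 20643462, plus strand), which oxidises retinaldehyde to retinoic acid, had 1349, 789, 1291 and 878 CPM on HF and 345, 359, 499 and 466 on LF (log2 fold change 1.37, SE 0.21, adjusted p 0.024), a call lost without HF replicate 3 or LF replicates 2 or 4.

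Of 25 cholesterol synthesis genes, 0 were called by edgeR, 22 had a positive log2 fold change, and 8 had an unadjusted p under 0.05 (16.3% of all genes in either direction). The median was 0.72, and the Wald test called 7, all higher (4.36% of all genes in either direction). Msmo1, a sterol demethylase, had 226, 70.2, 160.2 and 99.5 CPM on HF and 69.5, 52.1, 29.1 and 33.4 on LF (log2 fold change 1.59, adjusted p 0.0904). Hmgcs1, which makes HMG-CoA, had 597, 173, 282 and 176 CPM on HF and 108, 143, 87.96 and 107 on LF (log2 fold change 1.46, adjusted p 0.105). HF replicate 1 was the highest liver for both, and their groups did not overlap. Srebf2, the transcription factor of the pathway, had 127, 83.04, 99.5 and 87.3 CPM on HF and 73.1, 72.6, 66.3 and 75.6 on LF (log2 fold change 0.47, adjusted p 0.131). Sqle, squalene epoxidase, overlapped, at 138, 22.4, 58.9 and 33.97 CPM on HF and 41.3, 42.7, 12.9 and 17.9 on LF (log2 fold change 1.15, adjusted p 0.347).

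Over all genes, in either direction, the Wald test called 4.36% and 16.3% had an unadjusted p under 0.05. These shares are the background for each list of this paragraph. Of 23 lipogenesis genes 0 were called by edgeR, 1 was called by the Wald test, 3 reached an unadjusted p under 0.05, and the median was -0.15. Mlxipl, which encodes the carbohydrate-responsive factor ChREBP, was nearest to the threshold at 761, 653, 591 and 618 CPM on LF and 302, 427, 411 and 447 on HF (log2 fold change -0.73, adjusted p 0.0529), with no overlap. Scd1, the stearoyl-CoA desaturase, had 9407, 27658, 6807 and 9212 CPM on LF and 9431, 372, 4688 and 3029 on HF (log2 fold change -1.60, adjusted p 0.337), with HF replicate 1 inside the LF range. Pnpla3, a lipase of the droplet surface, had 10.3, 31.9, 3.80 and 6.90 CPM on LF and 5.85, 1.39, 2.74 and 1.91 on HF (log2 fold change -2.14, adjusted p 0.158). PPARA targets had 0 of 22 called by edgeR, 1 by the Wald test and 2 at an unadjusted p under 0.05 (median 0.13). Ppara itself had 283, 197, 216 and 229 CPM on HF and 79.5, 146, 180.1 and 145 on LF (log2 fold change 0.75, adjusted p 0.144). Cpt1a, the gate of mitochondrial fatty acid oxidation, overlapped with means of 931 CPM on HF and 688 on LF (log2 fold change 0.44, adjusted p 0.346). Of 19 insulin, glucagon and glucose genes 0 were called by edgeR, 2 by the Wald test and 9 at an unadjusted p under 0.05. G6pc, glucose-6-phosphatase, had 581, 433, 498 and 444 CPM on LF and 168, 354, 234 and 310.2 on HF (log2 fold change -0.88, adjusted p 0.0928) and did not overlap. Pck1, the first enzyme of gluconeogenesis from oxaloacetate, had 5847, 2621, 2150.3 and 1982 CPM on LF and 1612, 2107, 1812 and 1717 on HF (log2 fold change -0.80, adjusted p 0.257). In bile acid synthesis and transport 0 of 16 tested genes were called by edgeR, 3 were called by the Wald test, and 7 had an unadjusted p under 0.05. Among transporters, Abcc3 had a log2 fold change of 0.71 (adjusted p 0.0712) and Abcb11, the bile salt export pump, -0.70 (adjusted p 0.102). Cyp7a1, the rate-limiting enzyme of bile acid synthesis, had 1.18 (adjusted p 0.291).

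Further genes with large rises were Gpc1, Sema5b, Gpr12, Fam241b, Slc22a29 and Pmm1. Gpc1 (ENSMUSG00000034220, GRCm38 chromosome 1, 92831645 to 92860779, plus strand), a cell-surface heparan sulphate proteoglycan, had 54.9, 13.3, 39.1 and 26.6 CPM on HF and 8.19, 3.22, 6.10 and 2.59 on LF (log2 fold change 2.74, SE 0.47, adjusted p 0.0384), with a wide spread on HF that stayed above LF. Sema5b (ENSMUSG00000052133, GRCm38 chromosome 16, 35541145 to 35664732, plus strand), a semaphorin, had 14.3, 14.7, 22.1 and 14.6 CPM on HF and 0.885, 1.52, 5.60 and 3.6 on LF (log2 fold change 2.49, SE 0.45, adjusted p 0.0423). Both calls were kept in 3 of the 8 fits. Gpr12, an orphan receptor, had 9.57, 4.93, 7.41 and 7.81 CPM on HF and 0.830, 1.70, 2.07 and 2.89 on LF (log2 fold change 1.98, adjusted p 0.0417). Fam241b, Slc22a29 and Pmm1 rose by log2 fold changes of 1.47 (adjusted p 0.0423), 1.37 (adjusted p 0.0417) and 1.35 (adjusted p 0.0423), each with no overlap. Glipr2 fell to 0.899 ± 0.0568 CPM on HF from 2.92 ± 0.344 on LF (log2 fold change -1.69, adjusted p 0.0135). Of these, Gpr12, Slc22a29 and Pmm1 kept their call in 2 fits, Fam241b in 0 and Glipr2 in 4.

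A further 7 called genes, chosen here after their values were seen, encode metabolic enzymes. Car3, a carbonic anhydrase, rose from 833, 743, 971 and 1157 CPM to 1881, 2075, 2196 and 1607 CPM (log2 fold change 1.07, SE 0.16, adjusted p 0.0257). Ces1g, a carboxylesterase that acts on triglyceride, had 379.9, 360.4, 388 and 401 CPM on HF and 216, 242, 208 and 243 on LF (log2 fold change 0.75, adjusted p 0.0114). Chpt1, which completes phosphatidylcholine synthesis, had 232, 165, 189 and 189 CPM on HF and 108, 103, 109 and 129 on LF (log2 fold change 0.79, adjusted p 0.0264). Sord, sorbitol dehydrogenase, rose by a log2 fold change of 0.58 (adjusted p 0.0469). The mitochondrial enzymes Acad10, Ldhd and Suclg2 rose by 0.60 (adjusted p 0.0114), 0.59 (adjusted p 0.019) and 0.45 (adjusted p 0.0489). Ldhd exons overlap those of Znrf1 on the other strand, at a mean of 43.5 CPM against 116 for Ldhd. Ces1g and Acad10 kept their call in 6 of the 8 fits without 1 library, Car3, Chpt1 and Ldhd in 3, Sord in 1 and Suclg2 in 0.

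In the acute phase list 1 of 15 genes was called, lower (0.253% of all genes), and the Wald test called 6, 1 higher and 5 lower (4.36% of all genes). By edgeR this was Orm1, a plasma orosomucoid, at 557, 655, 519 and 537 CPM on LF and 358, 296, 398 and 361 on HF (log2 fold change -0.68, SE 0.12, adjusted p 0.0423), a call lost in all 8 fits without 1 library. Summed over the list, CPM ran from 19596 to 20996 on HF and from 24331 to 26234 on LF, without overlap. In 5 of the 15 genes every HF liver was below every LF liver (4.29% of all genes). Apcs had 88.6, 145, 158 and 118 CPM on LF and 77.3, 67.7, 70.9 and 78.2 on HF (log2 fold change -0.79, adjusted p 0.0593). Fgg, the fibrinogen gamma chain, had 2919, 3605, 3036 and 3454 CPM on LF and 1585, 2332, 1887 and 2417 on HF (log2 fold change -0.66, adjusted p 0.0928). Saa1 and Saa2, the serum amyloids, had log2 fold changes of the other sign, 1.08 (adjusted p 0.174) and 1.14 (adjusted p 0.268). Lect2, 1 of 12 hepatokine genes and the 1 called (0.443% of all genes were called higher), was at 136, 169, 168 and 186 CPM on HF and 104, 106, 96.6 and 122 on LF (log2 fold change 0.62, SE 0.12, adjusted p 0.0479), a call kept only without HF replicate 1.

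Immune and stromal lists had 0 genes called by edgeR in this comparison. Among 20 interferon-stimulated genes 17 were negative in sign and 7 had an unadjusted p under 0.05 (16.3% of all genes in either direction). Irf7, their transcription factor, had 75.2, 71.4, 69.1 and 52.5 CPM on LF and 49.4, 51.5, 44.05 and 37.4 on HF (log2 fold change -0.56, adjusted p 0.0928). All 11 tested lymphocyte genes were negative in sign, 5 with an unadjusted p under 0.05 (16.3% of all genes in either direction), led by Cd8a at 2.27, 1.46, 1.23 and 1.93 CPM on LF and 0.711, 0.753, 0.700 and 0.521 on HF (log2 fold change -1.35, adjusted p 0.0755). The list's summed CPM overlapped (20.8 to 41.9 on HF, 23.8 to 52.4 on LF). The part of lymphocyte content in the interferon values was not tested. Macrophage genes (12 tested), inflammatory cytokines (15) and matrix and stellate cell genes (28) had medians of -0.24, -0.25 and -0.18, with 0, 2 and 1 genes at an unadjusted p under 0.05. DESeq2 called 3 interferon-stimulated genes, 1 lymphocyte gene and 1 matrix gene, all lower, and 0 macrophage or cytokine genes. Over all genes it called 4.36% in either direction. Col1a1 was at 44.7 ± 66.01 CPM on HF and 29.6 ± 17.4 on LF (log2 fold change 0.60, adjusted p 0.768).

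The same diets were compared in 8 further females given AAV8-TBG-Cre (F-HF-KO and F-LF-KO, 4 each), which share no library with the controls. Pparg was not lower in the livers labelled knockout: on 1 scale over the 16 libraries it had 17.5 ± 3.90 CPM in HF controls and 26.99 ± 7.79 in HF labelled knockouts (SD, n = 4 each). On LF the same groups had 9.74 ± 3.003 and 14.4 ± 4.96 CPM. They are therefore called labelled knockouts here. A count over the whole gene can include transcripts that lack the floxed part. Of 14214 genes 22 were called for diet in labelled knockouts (0.155%), 10 higher (0.0704%) and 12 lower (0.0844%), and 1902 had an unadjusted p under 0.05 (13.4%). Of the 99 genes called in controls, 97 had the same sign in labelled knockouts (98.0%, against 67.2% of all 13982 genes tested in both) and 76 had the same sign and an unadjusted p under 0.05 (76.8%, against 11.9%). Lepr, Car3, Zfpm1 and the predicted genes C730036E19Rik and Gm45819, the last 4 of which were chosen after their values were seen, were called in both.

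In labelled knockouts, Per3 had 172, 129.6, 169.9 and 181 CPM on HF and 93.8, 79.7, 99.04 and 61.1 on LF (log2 fold change 0.97, against 0.998 in controls). Smad9 had 0.648, 0.366, 0.0933 and 0.841 CPM on HF and 2.27, 6.91, 3.68 and 11.1 on LF (-3.64, against -4.10). Lepr had 8.57, 5.79, 3.59 and 13.01 on HF and 29.5, 107, 259.6 and 125 on LF (-4.08, against -2.77). None of these 3 overlapped between diets. Enpp2 and Wee1 also kept HF above LF without overlap, at 1.17 and 1.03 on the log2 scale. Per2 and Arntl did not overlap either (0.63 and -1.24). Of the BMP genes, Id1, Id3, Hamp and Bmp6 overlapped between diets there, with log2 fold changes of -0.998, -0.74, -1.67 and -0.75. Npas2, Egfr and Fitm1 overlapped as well, at -0.87, -1.55 and 1.68. Plin5, not called by edgeR in controls, had the smallest adjusted p for diet in labelled knockouts. Its log2 fold change was -1.01 there (edgeR adjusted p 0.0181), without overlap, against -0.63 in controls. G6pc was called there as well, at -1.83 (edgeR adjusted p 0.0404) against -0.88. Plin5 and G6pc were singled out here after their values were seen. The lymphocyte, interferon-stimulated and cytokine lists had medians of 0.13, 0.16 and 0.31 in labelled knockouts, against -0.86, -0.35 and -0.25 in controls, and the difference between these medians was not tested.

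Plin4 and A1bg had the smallest p of the 14938 genes tested for a diet effect that differs between genotypes. Plin4 had 5.98, 12.4, 10.5 and 3.69 CPM on HF and 15.6, 10.2, 12.5 and 16.6 on LF in labelled knockouts, a log2 fold change of -0.75 against 1.78 in controls. Its interaction coefficient was -2.53 with an unadjusted p of 7.42e-05 and an adjusted p of 0.927. A1bg had 44.6, 21.5, 14.6 and 79.9 CPM on LF and 37.9, 4.33, 1.07 and 26.8 on HF in labelled knockouts (-1.20 against -7.90), with an interaction p of 0.000124 unadjusted and 0.927 adjusted. By edgeR's quasi-likelihood test 0 of the 14938 genes were called for the interaction (0%), 554 had an unadjusted p under 0.05, and DESeq2's Wald test called 2. Plin4 and A1bg were singled out here after their values were seen.

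**Figure D5:**
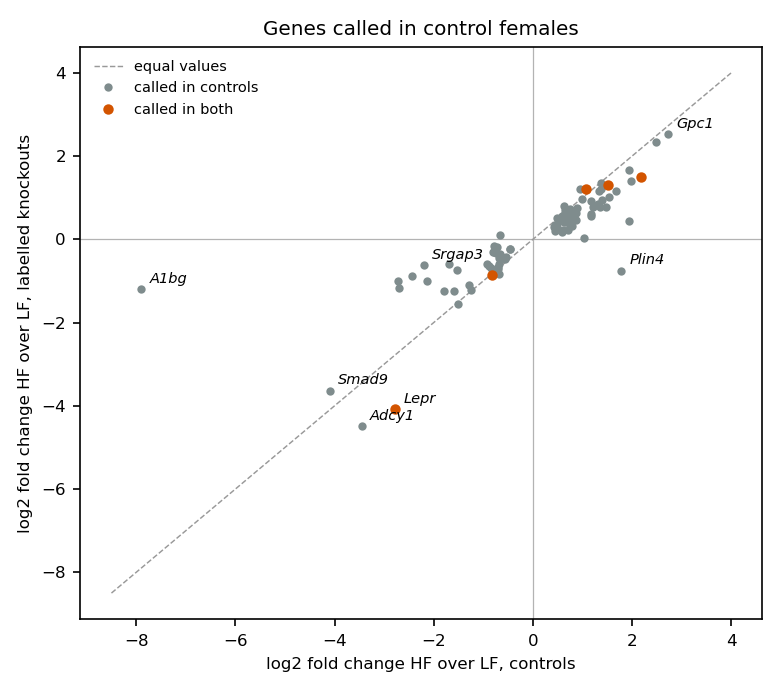
Log2 fold change, HF over LF, of the 99 genes called in control females (horizontal axis) against the same quantity in females labelled knockout (vertical axis), 1 point per gene; orange points were called in both and the dashed line marks equal values. Of the 99, 97 have the same sign on both axes; Plin4 and A1bg lie farthest from the line.

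With the diet effect fitted over all 16 LF and HF females, 1216 of 14938 genes were called (8.14%). In that fit, which contains the 8 control libraries, 14 of 19 clock genes were called, 10 higher and 4 lower, as were 8 of 32 BMP and TGF-beta genes, all lower, 6 of 25 cholesterol synthesis genes, all higher, and 6 of 15 acute phase genes, all lower. These shares were 73.7%, 25%, 24% and 40%. Apart from the clock, other lists had similar shares in either direction. They were 41.7% of 12 NRF2 response genes, 33.3% of 12 hepatokines and 30.8% of 13 leptin list genes. Insulin, glucagon and glucose genes had 26.3% of 19, male-biased genes 25% of 8, bile acid genes 23.5% of 17 and lipogenesis genes 21.7% of 23. The macrophage, cytokine and lymphocyte lists had 0%. Dbp, Ciart, Hamp, Bmp6, Smad7 and Id2 were among those called there, with log2 fold changes of 0.58, 1.33, -2.19, -0.89, -0.73 and -0.66. Pparg and Plin5, not called by edgeR in controls alone, were called there too. Their log2 fold changes were 0.88 (edgeR adjusted p 0.00686) and -0.81 (edgeR adjusted p 0.00046). Plin4 and A1bg, called in controls, were not called in that fit, with log2 fold changes of 0.60 (adjusted p 0.399) and -4.30 (adjusted p 0.0586).

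A further 4 control females (F-N-C) were fed the HF diet for 18 weeks and then for 16 weeks the HFCF diet, which adds cholesterol and fructose to the fat. Their comparison with LF uses the same 4 LF livers, so the values are set side by side only. There 5199 of 14755 genes were called (35.2%). Per3, Per2 and Arntl had log2 fold changes over LF of -0.12, -0.10 and -0.0061 on HFCF, against 0.998, 0.88 and -1.79 on HF. For Smad9, Id1, Id3 and Hamp they were -1.80, -1.34, -0.86 and -3.46 on HFCF and -4.10, -2.13, -1.53 and -2.74 on HF. Lepr, Egfr and A1bg stood at -1.73, -1.43 and -7.05 against -2.77, -1.5 and -7.90. Among lipid genes, Fitm1, Plin4, Enpp2 and Cidec had 2.34, 2.38, 0.90 and 3.20 on HFCF against 1.95, 1.78, 1.68 and 1.66 on HF, and Msmo1 and Hmgcs1 had -0.19 and 0.36 against 1.59 and 1.46. Pparg had 1.17 on HFCF (edgeR adjusted p 0.00148) against 0.84 on HF.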

How the data were processed

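RNA-seq was done on whole liver RNA with unstranded libraries of 250 to 300 bp inserts, per the labels' protocols. The submitters' processing notes name STAR 2.6.1, HTSeq 0.6.1, DESeq2 and the builds GRCm38 and mm10. The deposited tables give, per the file headers, a read count per gene and library, a normalised signal and FPKM. The signal was checked against the counts and differs from them by 1 constant per library. The authors' log2 fold changes and p-values are deposited beside them. Each table lists genes with at least 2 reads in all. Coordinates are those of the tables and are the same as in GENCODE M21 (GRCm38) for 97.1% of the 24512 shared genes. Repeated counts of a library across tables were identical (0 of 188040 differed), and 0 columns lacked a sample.

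Counts were analysed in R 4.3.3 with edgeR 4.0.16: filterByExpr, TMM normalization, the quasi-likelihood F test on the 2 groups compared and Benjamini-Hochberg adjustment over all genes tested, with DESeq2 1.42.0 as an alternative. The method was tested on simulated data. CPM in the text uses the TMM factors of the genes fitted in those 8 libraries. FPKM was taken as deposited. The biological coefficient of variation was 0.214, and p-values measure the spread between livers of 1 mouse each per the labels. Libraries were compared for duplicates: chi-square per degree of freedom was at least 17.1 for each pair, so none was merged.

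The groups, the 34 gene lists (505 genes, 494 in the tables, 29 of them pathway or cell type lists and 5 tissue checks) and the tests were chosen with earlier results of these data known. Genes named are the 12 largest rises and 12 largest falls that were called, reached a mean of 1 CPM in the higher group, did not overlap and were not predicted genes; called genes kept in all 8 fits without 1 library, called list members, Pparg, and up to 4 further members per list with the smallest p or a defining role; exceptions are marked in the text. Some genes that the rule names are not reported here. Promoter windows are RefSeq's (GRCm38.p6; 62 of the genes named have one), searched on both strands for GGCGCC (BMP SMAD motif), CACGTG (E-box), TCACNCCAC (sterol regulatory element), and AGGTCA repeated after 1 base (PPAR response element); these were found in 11.9%, 7.15%, 1.24% and 0.0396% of all windows. Exons shared with another gene were found in GENCODE M21. Larger overlaps on the other strand not given above were Sphk2 with Dbp (means of 71.1 and 156 CPM), Phrf1 with Irf7 (29.9 and 56.3) and Thra with Nr1d1 (21.0 and 126).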

Additional observations from a re-analysis of the deposited data

Results flagged for a closer look

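In 148 groups of 4 livers, over the genes given in the text and both diets, Dixon's gap test at its 95% level marked 11, where chance marks about 1 in 20; 6 of the 11 were HF replicate 1. Among called genes, the highest liver stood apart on HF for Sema5b (22.1 CPM in replicate 3, the others 14.3 to 14.7), Fitm1 (35.1 in replicate 1, the others 16.7 to 19.1), Smad9 (1.48 in replicate 1, the others 0.348 to 0.521) and Glipr2 (0.984 in replicate 1, the others 0.868 to 0.875). Ciart in HF replicate 1 was the lowest of its group at 11.98 CPM (18.4 to 19.6).

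HF replicate 1 had 53.5 CPM of Cidec against 5.90 to 13.2 in the other HF livers, and 93.5 CPM of Osbpl3 against 3.76 to 14.0. LF replicate 1 was likewise the highest LF liver for Osbpl3 (13.1 CPM, the others 2.61 to 3.36) and for Pck1 (5847 CPM, the others 1982 to 2621). In LF livers Socs2 reached 115 CPM in replicate 4 (43.1 to 48.3 in the others) and Scd1 27658 CPM in replicate 2 (6807 to 9407).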

How the results depend on the processing

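The count of 99 genes called in controls was 633 by DESeq2's Wald test, 172 with no filter on low counts, 39 where the log2 fold change also had to reach 1 in size, 180 with the 4 LF and HF female groups in one fit, 313 with all 6 female groups in one fit, 1216 for the diet effect common to both genotypes, and 238 without replicate 1 of both diets, which was chosen after seeing the data. Leaving out 1 library gave 10 to 112. It was 97 with DESeq2 size factors and 120 with at least 10 counts in every library. In labelled knockouts the 22 calls became 500 by the Wald test and 0 to 124 without 1 library. HFCF against LF gave 5199 calls, and 3474 to 5694 without 1 library; the interaction gave 0, 0 to 0 without 1 library, and 2 by the Wald test.

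The replicate numbers were not shown to pair the livers: same-numbered livers had correlations of deviations of 0.333, -0.096, -0.106 and 0.180, and 3 of 8 libraries correlated best with their own number. With the replicate number as a block the counts were 76 in controls (51 of the 99 among them), 9 in labelled knockouts, 2036 for HFCF and 0 for the interaction.

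For the 28 called genes named by rule, 501 values under alternatives gave 0 changes of sign, 371 kept calls and 130 lost calls, 107 of them in the 224 fits without 1 library. By the Wald test all 28 stayed called. Of the 99 calls, 7 were kept in all 8 fits without 1 library and 73 in at most 4. At 4 livers a group, few reads limit Npas2, Adcy1 and the HF values of Smad9.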
